A study of Mus musculus with 24 samples.

Results

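The 8 genes at the core of insulin and insulin-like growth factor 1 (IGF1) signalling, Igf1, Insr, Igf1r, Irs1, Irs2, Akt1, Foxo1 and Foxo3, were followed in the brain of mice fed 4 diets. They were found by their symbols, current or older, and every probe set that the platform annotation gives to 1 of these symbols and to no other gene was taken. This gave 25 probe sets for the 8 genes, of 34945 probe sets for 18193 genes in all. A probe set is a group of short probes on the array that reads 1 transcript, and its value is a log2 level, so that a difference of 1 is a doubling. Of the 25 probe sets, 16 had a mean log2 level over the 24 arrays of at least 4.07, the median of all probe sets, and were tested. The other 9 lay below this floor, and each gene kept at least 1 tested probe set. They belong to Insr, Igf1r and Akt1 (2 each) and to Igf1, Foxo1 and Foxo3 (1 each), with diet means between 3.00 and 4.27, and are not read further, apart from that of Igf1. A probe set that the annotation gives to Foxo3 and to a second gene was left out. The probe set with the highest mean level is called the main one of its gene.

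The donors were 24 female NMR-1 mice with no genetic change stated in the labels, 8 weeks old when the diets began and fed for 2 weeks, and RNA came from the whole right hemisphere of the cerebrum. The 6 mice of each group ate either the pellets on which all of them had been raised, a chimpanzee diet of vegetables, fruit and yogurt, cooked food from a cafeteria for people, or fast food from a restaurant chain, and the last 2 are called the human diets. Each mouse gave 1 Affymetrix GeneChip array of the mouse genome, and 3 mice of each diet stood in each of the 2 labelled batches. The question was whether the diets differed in brain gene expression, first between the human diets and that of chimpanzees, and the pellet diet serves as the diet of the breeding colony. The tissue label was met by its markers, since the mean log2 levels of the neuron markers lay between 8.21 and 11.68 and those of the oligodendrocyte markers between 6.85 and 12.25, while albumin, a liver gene, stood at 4.11. Of the other liver genes tested, Apoa1 stood at 4.59 and Ttr, which the choroid plexus also expresses, at 12.04.

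Insulin and IGF1 are secreted ligands. They bind the receptor tyrosine kinases that Insr and Igf1r encode, and the activated receptors phosphorylate the adaptor proteins Irs1 and Irs2. The adaptors recruit PI3 kinase, whose lipid product brings the kinase Akt1 to the membrane, and active Akt1 keeps the transcription factors Foxo1 and Foxo3 out of the nucleus. When signalling is low, Foxo factors enter the nucleus and raise the transcription of genes of fasting and stress resistance. In brain, IGF1 is made by neurons, glia and vessel cells and is known for growth, myelination and synapse formation, and insulin receptors are known for their part in feeding and glucose control. These steps run mostly through protein phosphorylation, which an array does not read.

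Promoter sequences from RefSeq (build GRCm38.p6) were held for 7 of the 8 members, in 8 windows of 300 bases, from 250 bases before to 50 bases after a transcription start. Each window was searched on both strands for the Foxo core, TGTTTAC, and for the core of the insulin response sequence, CAAAACA. Read on the same strand, the motifs share their first 5 letters, so that they can overlap but not start at the same base. Igf1 and Foxo3 are shown because they alone held a probe set called between pellets and fast food when, as described below, diet by batch means were used and 1 array was left out, and Irs1 and Irs2 because these adaptors moved in opposite directions between the batches. Capitals mark the matches, and all 4 sequences run 5′ to 3′ along the gene.
Igf1 (chr10:87860861-87861160, plus strand): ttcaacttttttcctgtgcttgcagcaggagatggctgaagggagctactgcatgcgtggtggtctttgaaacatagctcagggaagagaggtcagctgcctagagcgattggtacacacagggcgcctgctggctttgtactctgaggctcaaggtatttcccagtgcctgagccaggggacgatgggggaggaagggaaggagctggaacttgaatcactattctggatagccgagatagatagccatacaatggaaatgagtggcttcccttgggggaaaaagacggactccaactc
Foxo3 (chr10:42276646-42276945, minus strand): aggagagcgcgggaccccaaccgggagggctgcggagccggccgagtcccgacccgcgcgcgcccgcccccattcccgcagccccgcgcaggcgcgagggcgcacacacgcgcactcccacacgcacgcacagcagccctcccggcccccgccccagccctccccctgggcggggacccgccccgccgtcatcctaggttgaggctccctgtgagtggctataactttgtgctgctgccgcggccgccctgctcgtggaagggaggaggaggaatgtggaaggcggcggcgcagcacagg
Irs1 (chr1:82291390-82291689, minus strand): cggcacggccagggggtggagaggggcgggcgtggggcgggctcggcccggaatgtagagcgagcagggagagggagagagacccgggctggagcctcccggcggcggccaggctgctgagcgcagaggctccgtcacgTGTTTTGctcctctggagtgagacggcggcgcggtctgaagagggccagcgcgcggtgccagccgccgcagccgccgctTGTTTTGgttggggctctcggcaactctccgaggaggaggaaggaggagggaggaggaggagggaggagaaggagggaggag
Irs2 (chr8:11008880-11009179, minus strand): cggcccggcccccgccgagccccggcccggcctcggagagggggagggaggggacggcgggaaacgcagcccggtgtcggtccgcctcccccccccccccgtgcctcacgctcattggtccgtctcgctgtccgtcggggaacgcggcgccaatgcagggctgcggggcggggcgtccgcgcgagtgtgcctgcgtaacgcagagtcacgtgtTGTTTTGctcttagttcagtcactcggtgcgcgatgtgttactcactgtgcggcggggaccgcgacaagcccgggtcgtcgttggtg
The windows of Igf1 and Foxo3 held neither motif. Irs1 held the insulin response core at 111 and at 32 bases before the start, and Irs2 at 37 bases before it. Of the members not shown, 1 of the 2 windows of Akt1 held the Foxo core, at 161 bases before the start, and the windows of Foxo1 and Igf1r held neither. Among all 32851 promoters of this length, 3.65% held the Foxo core and 6.28% the insulin response core. These matches are a description of the letters in the window.

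The arrays differed in ways that touch every value below. The pellet array of batch 2, replicate 1, stood apart: its median correlation with the other arrays was 0.893, against 0.980 to 0.993 for the other 23. Member and marker list values that this array moves by more than 1.5 times are also given without it. This covers pellet minus fast food over both batches. Pellet SDs, pellet values within batch 2 and differences between the batches on pellets include the array unless stated. The signal of 18S ribosomal RNA on the other 3 diets lay between 5.87 and 6.58 in batch 1 and between 4.88 and 5.15 in batch 2, while on pellets it lay between 4.96 and 5.51 in batch 1 and between 5.92 and 6.42 in batch 2. The diets were compared with batch as a term in limma, over all 24 arrays. Because the pellet arrays crossed the batch difference, the same contrasts were also taken from the means of each diet in each batch, with all arrays and with 23. Mice of 1 diet are separate animals, and in RNA of a whole hemisphere fewer cells of a type and less RNA per cell cannot be told apart.

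No member passed the test among the diets. In the test over 4 diets 0 of the 16 member probe sets had an adjusted p under 0.05, where 0.0444% of all 22519 probe sets did, and 3 had an unadjusted p under 0.05 (both higher probe sets of Igf1 and the main one of Foxo3), where 5.32% of all did. The count was also 0 between the human diets and that of chimpanzees, between the cafeteria and chimpanzee diets, between fast food and the chimpanzee diet, between fast food and the cafeteria diet, between fast food and the cafeteria and chimpanzee diets together, and between pellets and the cafeteria diet, where 0% of all probe sets were called. Between pellets and the chimpanzee diet it was 0 against 0.00444% of all, and between pellets and fast food 0 against 0.04% of all. At an unadjusted p under 0.05, 7 of the 16 member probe sets differed between pellets and fast food, where 21.3% of all did, 4 between pellets and the cafeteria diet (5.41% of all), 2 between fast food and the chimpanzee diet (1.81%) and 1 between the human diets and that of chimpanzees (1.87%). The count was 1 between fast food and the cafeteria and chimpanzee diets together (1.2%), and 0 between pellets and the chimpanzee diet, where 9.42% of all did, and in the remaining pairs of diets. The members were chosen with earlier results of these data known. Their counts beside the shares of all probe sets, here and below, are therefore no test of the members as a set.

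Igf1, the growth factor itself, had its highest levels on fast food and its lowest on pellets. Its main probe set (1437401_at) ran on the chimpanzee diet from 4.68 to 4.86 with a median of 4.77, on cafeteria food from 4.78 to 5.12 with a median of 4.91, on fast food from 4.77 to 5.28 with a median of 5.11, and on pellets from 4.36 to 5.02 with a median of 4.67. Of the 6 cafeteria arrays 5 lay above the highest chimpanzee array, as did 5 of the 6 fast food arrays, and the pellet arrays overlapped with all 3 groups. The means ran from 5.08 ± 0.18 on fast food (SD, n = 6) over 4.94 ± 0.12 on cafeteria food and 4.77 ± 0.07 on the chimpanzee diet to 4.68 ± 0.25 on pellets. Of the neighbours in this order, only the cafeteria and chimpanzee diets lay further apart than the SD of either. A second probe set (1434413_at), with a lower mean level, gave the same order, with 5.21 ± 0.31, 4.99 ± 0.26, 4.73 ± 0.18 and 4.39 ± 0.64 (SD, n = 6), and its lowest value, 3.20, came from the pellet array that stood apart. Without that array its pellet mean was 4.62 ± 0.31 (SD, n = 5).

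Between the human diets and that of chimpanzees, Igf1 differed by 0.23 (SE 0.09) log2 at the main and by 0.37 (SE 0.19) at the second probe set, with an adjusted p of 1.0 at both in limma. The difference had the same sign in both batches, with 0.15 in batch 1 and 0.32 in batch 2 at the main probe set, and 0.19 and 0.55 at the second. Fast food alone lay 0.30 and 0.48 log2 above the chimpanzee diet. The difference of pellet minus fast food was -0.39 (SE 0.11) at the main and -0.83 (SE 0.22) at the second probe set, with an adjusted p of 0.226 at both.

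The comparison of pellets with fast food depended on how batch was handled. From the means of each diet in each batch, both Igf1 probe sets were lower on pellets than on fast food, with adjusted p = 0.0294 and 0.0202 in limma, where 17.1% of all probe sets and 5 of the 16 member probe sets were called. Without the pellet array that stood apart the differences were -0.34 (SE 0.10, adjusted p = 0.0502) and -0.63 (SE 0.13, adjusted p = 0.0133), and 5.84% of all probe sets and 2 of the 16 were called. This fit without the array was chosen after seeing the data. The sign was the same in both batches: pellet minus fast food was -0.20 and -0.22 in batch 1 and -0.59 and -1.43 in batch 2.

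The remaining probe sets of Igf1 did not share this pattern. Another (1452014_a_at), with means between 4.30 and 4.51 on the 4 diets, differed by 0.20 between pellets and fast food and by 0.02 without the array that stood apart. It correlated with the main probe set at r = -0.33 over 24 arrays and at r = 0.25 over 23, whereas the second probe set did so at r = 0.79 and 0.72. The last one (1419519_at) lay below the floor, with means between 3.80 and 3.94. The order of diets was thus shared by 2 of the 4 probe sets of Igf1.

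**Figure D1:**
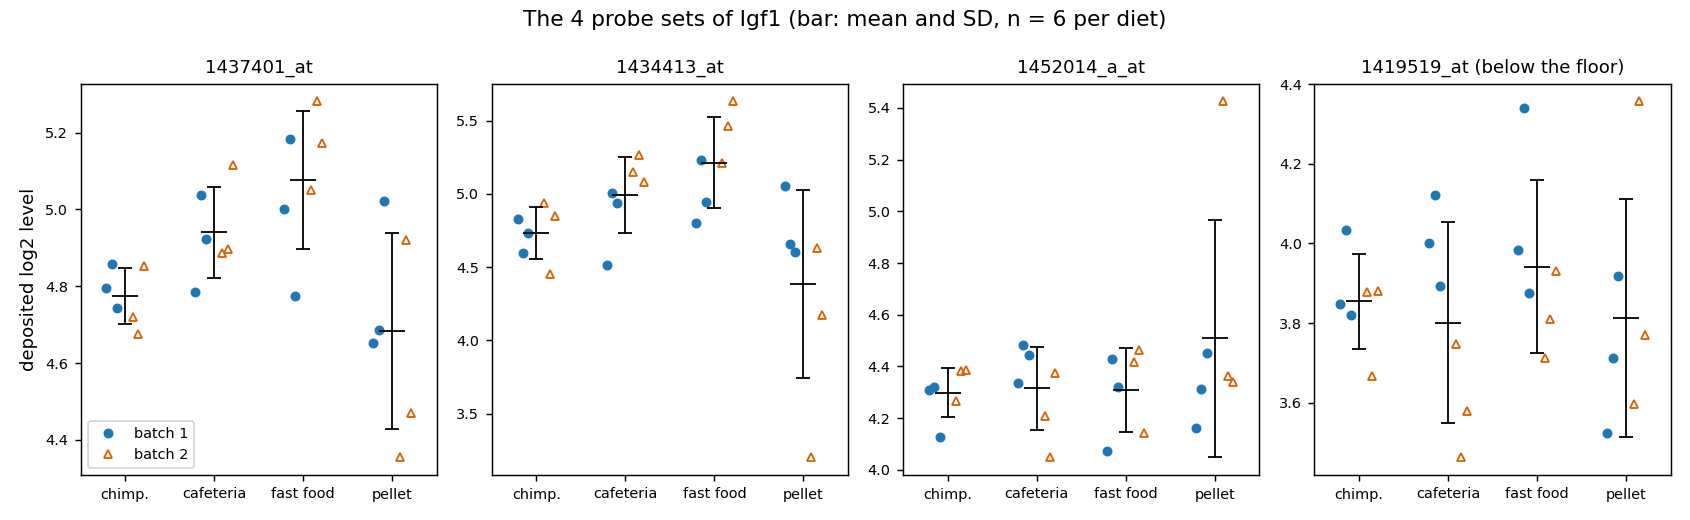
Deposited log2 level (vertical axis) of the 4 probe sets of Igf1 on each diet (horizontal axis), with filled circles for batch 1, open triangles for batch 2, and a mark at the mean with whiskers of 1 SD (6 mice). The left pair of panels falls from fast food over cafeteria and chimpanzee diets to pellets, and the right pair has no such order.

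Foxo3, a transcription factor that Akt kinases hold inactive, had its means in the same order of diets. On the chimpanzee diet its main probe set (1434832_at) ran from 7.15 to 7.46 with a median of 7.26, on cafeteria food from 7.09 to 7.63 with a median of 7.39, on fast food from 7.28 to 7.95 with a median of 7.41, and on pellets from 6.41 to 7.41 with a median of 7.04. All 6 fast food arrays lay above 5 of the 6 pellet arrays, and the fast food and chimpanzee groups overlapped. The means were 7.48 ± 0.24 on fast food, 7.38 ± 0.18 on cafeteria food, 7.27 ± 0.12 on the chimpanzee diet and 6.99 ± 0.35 on pellets (SD, n = 6), and no neighbours in this order differed by more than both of their SDs. The fast food mean includes 1 outlying array at 7.95 (nearest 7.50), and the medians of fast food and cafeteria food were close, at 7.41 and 7.39. Pellet minus fast food was -0.49 (SE 0.14) with an adjusted p of 0.226, and the second probe set (1434831_a_at) gave -0.39 (SE 0.17). From the diet by batch means without the array that stood apart, the main probe set was lower on pellets than on fast food, with a difference of -0.40 (SE 0.10, adjusted p = 0.0296 in limma). The second had -0.31 (adjusted p = 0.176). In this fit, chosen after seeing the data, 5.84% of all probe sets were called. In batch 1 the main probe set differed by -0.16 and in batch 2 by -0.83. The human diets lay 0.17 log2 (SE 0.12) above the chimpanzee diet, which did not pass the test.

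Foxo1, the other Foxo factor among the members, had close means on all diets. Its main probe set (1416983_s_at) stood at 6.68 ± 0.19, 6.67 ± 0.15 and 6.68 ± 0.11 on the chimpanzee, cafeteria and fast food diets and at 6.52 ± 0.26 on pellets (SD, n = 6). The difference of pellet minus fast food was -0.15, -0.06 without the array that stood apart and -0.08 from the diet by batch means of 23 arrays. The other tested probe sets pointed the other way, with 0.19 (1416981_at) and 0.28 (1416982_at), the latter at 0.16 without the array that stood apart. They correlated with the main one at r = 0.00 and -0.53 over 24 arrays and at r = 0.08 and -0.27 over 23. No direction is given for Foxo1, since its probe sets differed in sign.

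Insr, the insulin receptor, was read by 1 probe set above the floor (1434446_at). Its log2 level ran on the chimpanzee diet from 5.71 to 6.50 with a median of 6.35, on cafeteria food from 5.79 to 6.55 with a median of 6.19, on fast food from 6.18 to 6.76 with a median of 6.44, and on pellets from 4.65 to 6.32 with a median of 6.04. The fast food arrays were the highest as a group, and the lowest pellet value came from the array that stood apart. Pellet minus fast food was -0.59 (SE 0.22) with all arrays (adjusted p = 0.226) and -0.34 without that array in the same fit, so that this 1 array moved the value by more than 1.5 times. From the diet by batch means Insr was called with all 24 arrays (adjusted p = 0.0373 in limma) and not with 23 (difference -0.39, adjusted p = 0.0695). By batch the difference was -0.11 in batch 1 and -1.07 in batch 2. Human diets minus chimpanzee diet was 0.08 (SE 0.19).

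Igf1r, the receptor of IGF1, had means of 7.55 ± 0.34 on the chimpanzee diet, 7.44 ± 0.30 on cafeteria food, 7.49 ± 0.37 on fast food and 7.16 ± 0.36 on pellets (SD, n = 6; 1452982_at). Sorted by mean, neighbouring diets differed by less than their SDs. Pellet minus fast food was -0.32 (SE 0.19) with all arrays and -0.19 without the array that stood apart, and it stood at 0.22 in batch 1 and at -0.86 in batch 2. Another probe set (1428967_at) gave -0.50 (SE 0.19) and passed in the diet by batch means with all arrays (adjusted p = 0.0431) but not without the array that stood apart (adjusted p = 0.106). A further tested probe set (1426565_at) had the opposite sign, 0.25 (SE 0.12), or 0.17 without that array, and correlated with the main one at r = -0.37 over 24 arrays and at r = -0.13 over 23.

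The adaptors Irs1 and Irs2 were each read by 1 probe set. Irs1 (1423104_at), the adaptor best known from muscle and fat, had means of 7.43 ± 0.16, 7.35 ± 0.25 and 7.54 ± 0.24 on the chimpanzee, cafeteria and fast food diets and 6.99 ± 0.93 on pellets (SD, n = 6). The array that stood apart held 5.14, and the other 5 pellet arrays lay between 7.02 and 7.60, at 7.36 ± 0.25 (SD, n = 5). Pellet minus fast food was -0.55 (SE 0.28) with this array and -0.17 without it. Irs2 (1443969_at), the adaptor best known from liver and hypothalamus, had means between 5.96 and 6.05 on the 4 diets. For Irs2 the array that stood apart was the highest of all, at 7.11, and without it the pellet mean was the lowest of the diets, at 5.83 ± 0.22 (SD, n = 5). Pellet minus fast food was 0.07 with it and -0.16 without it. In batch 1 the 3 pellet arrays, from 5.51 to 5.81, lay below the 9 others, from 5.89 to 6.42, and in batch 2 they did not. With array weights Irs2 was called between pellets and each other diet, as given below with the share of all probe sets.

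Akt1, the kinase between PI3 kinase and the Foxo factors, had the highest log2 levels on the chimpanzee diet, at 8.05 ± 0.26, followed by the cafeteria diet at 7.99 ± 0.11, fast food at 7.95 ± 0.18 and pellets at 7.79 ± 0.44 (SD, n = 6; 1416657_at). Each gap in this order was smaller than the SDs. Without the array that stood apart the pellet mean was 7.96 ± 0.19 (SD, n = 5), close to that of fast food. With pellets set against fast food, Akt1 differed by -0.15 (SE 0.16) and 0.02 without the array that stood apart. The second probe set (1425711_a_at) correlated with it at r = 0.88 over 24 and 0.71 over 23 arrays and gave -0.21 (SE 0.15), or -0.06 without that array.

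**Figure D2:**
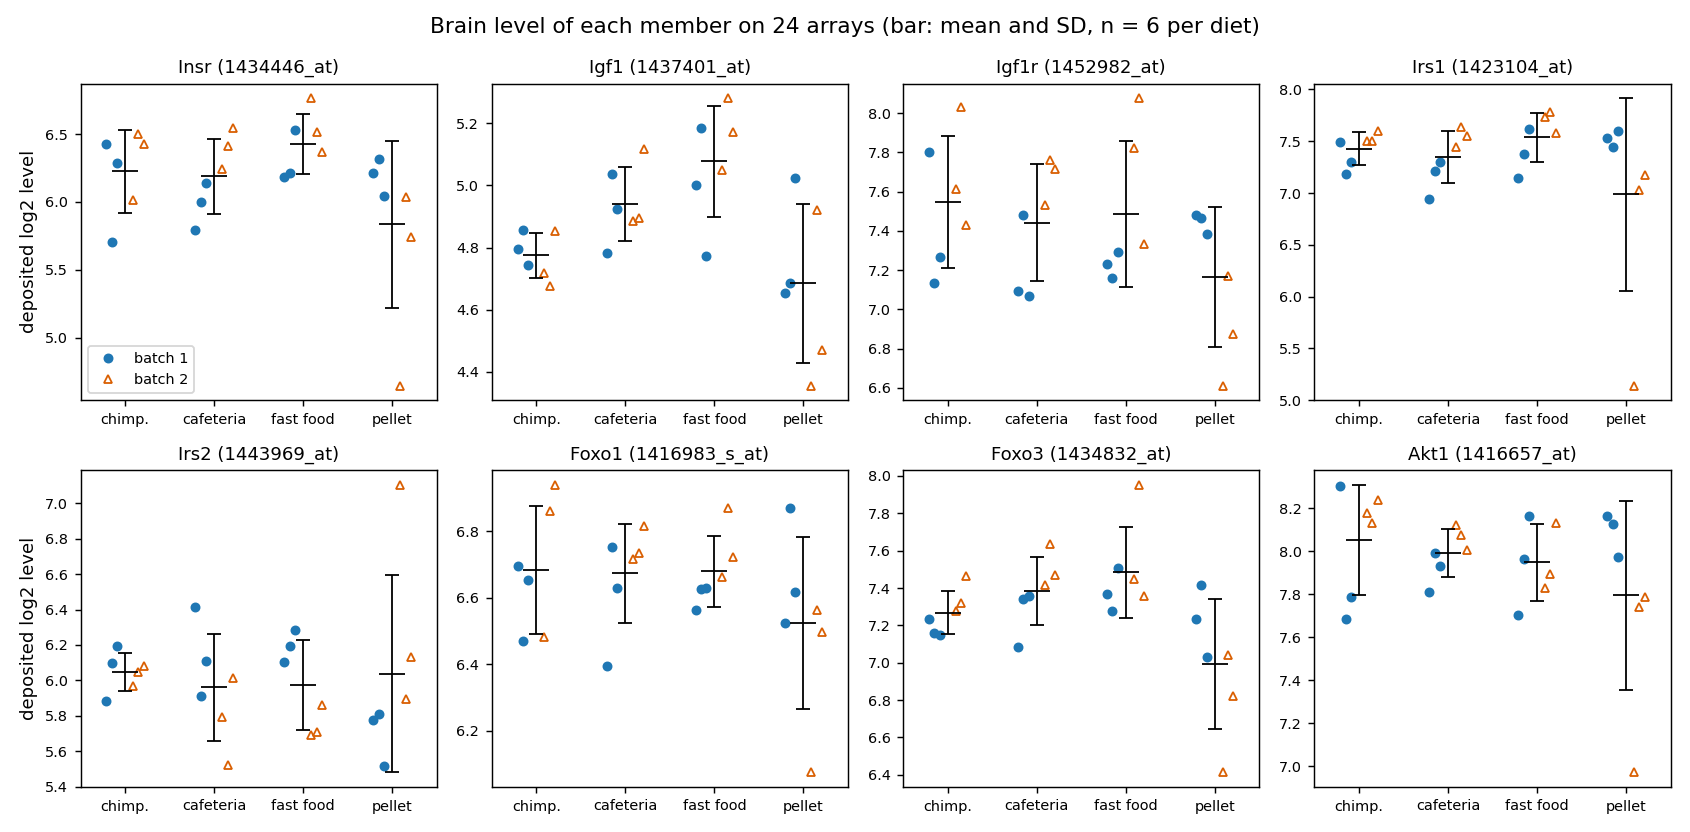
Deposited log2 level (vertical axis) of the main probe set of each member by diet (horizontal axis), with filled circles for batch 1, open triangles for batch 2, and a mark at the mean with whiskers of 1 SD (6 mice). The means of Igf1 and Foxo3 run upward from the chimpanzee diet to fast food, and the widest whiskers belong to the pellet group for each member but Igf1r, and 1 pellet array of batch 2 lies far from the others for Insr, Irs1, Irs2 and Akt1.

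Of the 16 probe sets, 11 were lower and 5 higher on pellets than on fast food, with a median of -0.27 log2. All tested probe sets had a median of -0.17, and 27.6% of them were higher on pellets, so that the members lay on the side to which the whole array leaned. Quantile normalization of the deposited values moved the median of all probe sets to -0.03, and the main probe sets then stood at -0.41 for Igf1, -0.52 for Insr, -0.40 for Irs1, -0.26 for Foxo3 and -0.08 for Igf1r, with 0 called. Akt1 and Foxo1 changed sign under it, to 0.085 and 0.049. From the diet by batch means of 23 arrays the median was -0.17 for the members and -0.09 for all probe sets. In batch 2 alone 9 of the 16 were called between pellets and fast food, where 59% of all probe sets were, 9 between pellets and the cafeteria diet (50.2% of all), 8 between pellets and the chimpanzee diet (52.2%) and 7 in the test of 4 diets (43.6%). In batch 1 alone, 0 of the 16 were called in any of these. The comparisons with pellets share the 6 pellet arrays, and 3 of them are the batch 2 arrays. When the batch labels of the pellet arrays were exchanged, as the 18S signal runs, 5 of the 16 were called between pellets and fast food (15.6% of all), and 3 without the array that stood apart, both higher probe sets of Igf1 and the main one of Foxo3 (6.7% of all). With a weight for each array estimated from the data, 2 were called in that comparison, the second probe set of Igf1 and Irs2 (5.76% of all), and 3 in the test of 4 diets (11.5%), 2 between pellets and the cafeteria diet (18.1%), 1 between pellets and the chimpanzee diet (17.9%) and 1 between fast food and the chimpanzee diet, again Igf1 (0.2%).

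For the human diets against the chimpanzee diet 8 probe sets were higher and 8 lower, with a median of 0.00 against 0.01 over all probe sets.

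**Figure D3:**
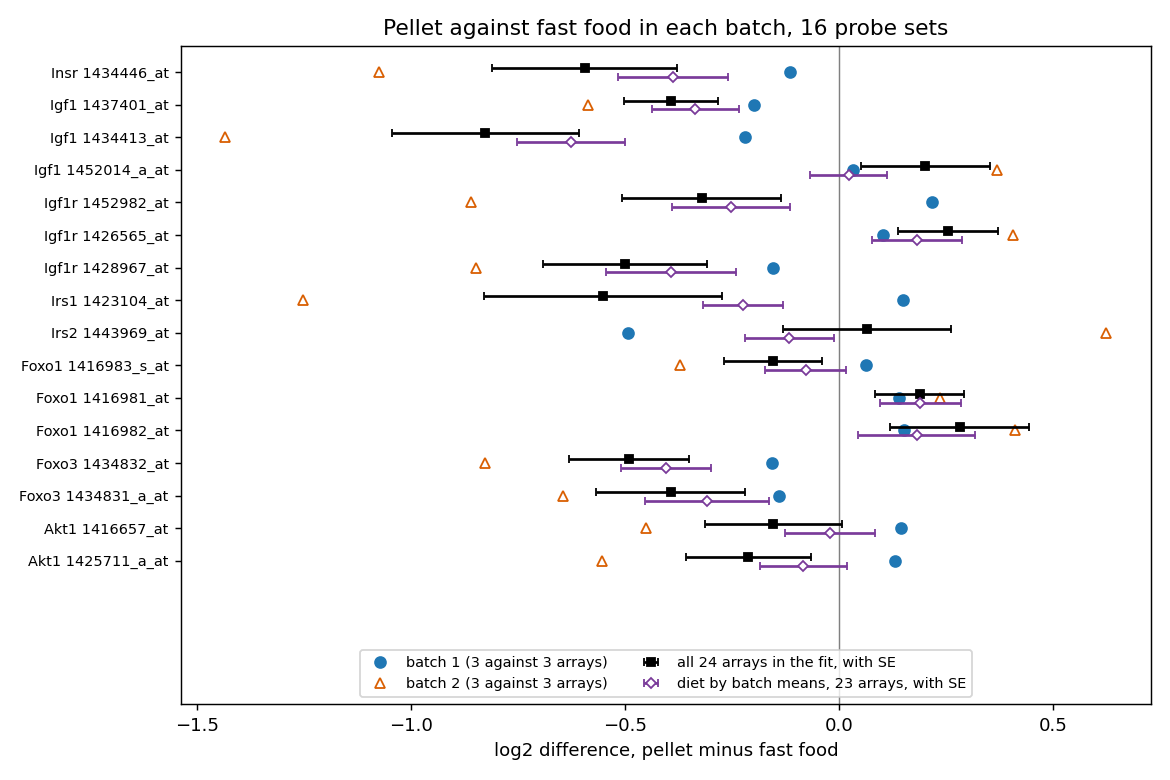
Log2 difference of pellet minus fast food (horizontal axis) for each of the 16 tested member probe sets (vertical axis), in batch 1 (circles), in batch 2 (triangles), in the fit of all 24 arrays (squares, with SE) and from diet by batch means of 23 arrays (diamonds, with SE). The batch 2 values reach from -1.43 for Igf1 to 0.62 for Irs2, and for each of the 16 probe sets the batch 1 value lies nearer to 0 than that of batch 2.

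On the 18 arrays that were not from pellet-fed mice, the members differed between the batches. Of the 16 probe sets, 7 were called, near the 51.5% of all probe sets that were, and their median of 0.15 was that of all probe sets, 0.15. Without 1 array of the cafeteria diet (batch 1, replicate 1) 4 were called with 46.9% of all. The main probe set of Igf1r rose from batch 1 to batch 2 by 0.42 (SE 0.11) log2 (adjusted p = 0.00271 in limma), and its others, at 0.00 and 0.12, did not pass. Irs1 rose by 0.31 (SE 0.07), Insr by 0.28 (SE 0.10), the second probe set of Igf1 by 0.27 (SE 0.09), and the probe sets of Foxo3 by 0.21 and 0.29. Irs2 was the exception and differed by -0.28 (SE 0.09) (adjusted p = 0.00973 in limma), that is, it fell. After quantile normalization, which moved the median of all probe sets to -0.01, 3 were called with 43.8% of all (Irs2, the main probe set of Akt1 and Foxo1 1416981_at). The direction of the calls of Akt1 and Foxo1 after this step is not given here. Irs2 then stood at -0.42, Igf1r at 0.17, Irs1 at 0.07 and Insr at 0.12, and the main probe set of Foxo3 changed sign, to -0.032. Irs2 passed both with the deposited values and after this step. The neuron markers moved with the batches as well, with 6 of 6 called higher in batch 2 and a median of 0.67, and so did 5 of 6 astrocyte and 5 of 5 oligodendrocyte markers, and their part was not tested. With the deposited values the main probe sets of Igf1, with 0.06, Foxo1 with 0.15 and Akt1 with 0.14 did not pass.

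On pellets the members ran against this difference. For Irs1, batch 2 minus batch 1 was 0.21, 0.39 and 0.32 on the chimpanzee, cafeteria and fast food diets and -1.08 on pellets. For Irs2 the same values were -0.03, -0.37 and -0.44 against 0.68 on pellets, so that both adaptors turned, in opposite directions. These pellet values include the array that stood apart, which was the lowest pellet array for Irs1 and the highest for Irs2. The term for this turn, pellet minus the other diets in batch 2 less the same in batch 1, was called for 11 of the 16 probe sets with 69.2% of all, and without the array that stood apart for 8 with 56.8% of all. The 18S signal crossed the batches in the same arrays, and its part in these differences was not tested beyond its use as a covariate. With all arrays, the main probe set of Igf1 was the one among the 8 main probe sets whose term did not pass, at -0.27 (SE 0.17, adjusted p = 0.167 in limma).

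**Figure D4:**
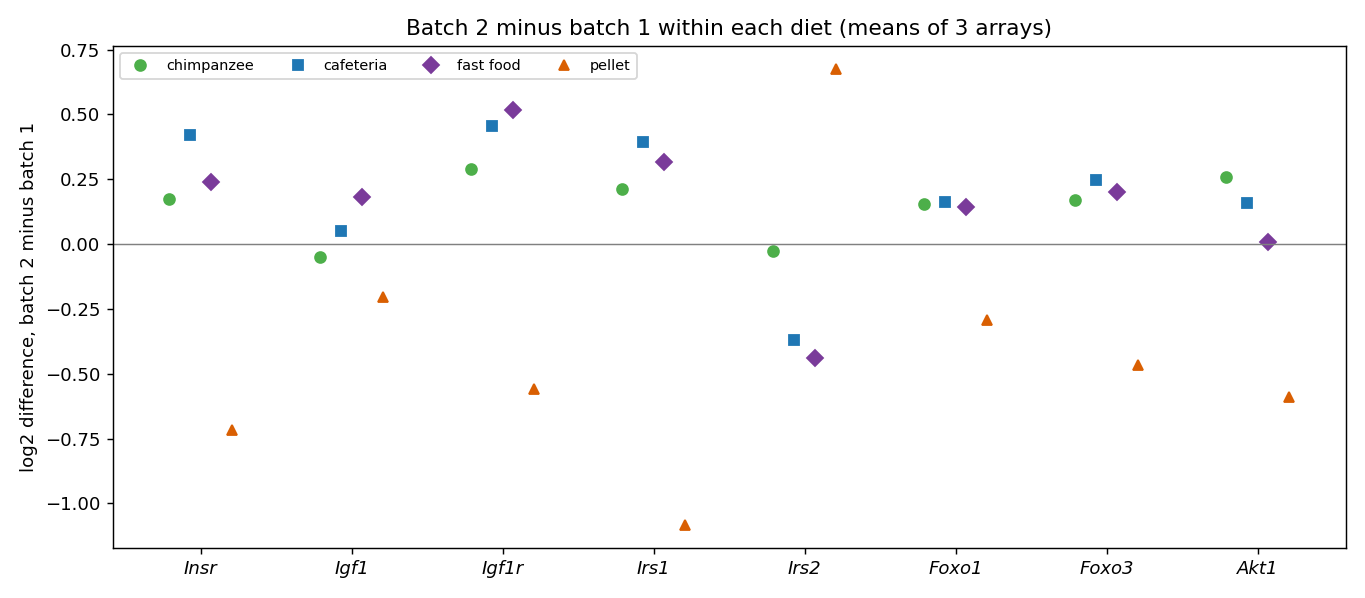
Log2 difference of batch 2 minus batch 1 (vertical axis) for the main probe set of each member (horizontal axis), with 1 symbol per diet that stands for the difference of 2 means of 3 arrays. Pellet symbols lie below those of the other diets for 7 members and above them for Irs2.

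Other genes of the pathway were read from 6 lists that hold 83 genes, of which 70 were tested. In the test over 4 diets and between pellets and fast food 1 of the 70 was called, where 0.0444% and 0.04% of all probe sets were. This was Inpp4a, a phosphatase that removes a phosphate from a lipid product of PI3 kinase. Inpp4a was known from earlier results when the list was made, so that its call is no result about the pathway. Its mean log2 levels were 8.03 on fast food, 7.80 on cafeteria food, 7.29 on the chimpanzee diet and 7.16 on pellets, which is the order of the means of Igf1 and Foxo3. Its difference of pellet minus fast food was -0.87 (SE 0.15, adjusted p = 0.0172 in limma), and from the diet by batch means of 23 arrays -0.85. In that fit 4 of the 70 were called between pellets and fast food, a share near the 5.84% of all probe sets. Beside Inpp4a these were Socs6, a brake on the receptors, with -0.64, Rictor, a subunit of mTOR complex 2, with -0.36, and Inpp5d, a lipid phosphatase of blood and immune cells, with 0.35. The same fit called Inpp4a between the human diets and that of chimpanzees, at 0.63 (adjusted p = 0.00192 in limma, 0.0799% of all called), where the fit with batch as a term had not (adjusted p = 0.241). It also called Inpp4a between fast food and the chimpanzee diet, at 0.74 (0.0622% of all), and Inpp4a and Socs6 over the 4 diets (0.24% of all).

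By list, the 9 tested ligands and binding proteins held 0 calls between pellets and fast food, with 5 higher and 4 lower, and the smallest p belonged to Igfals (0.36), a carrier of circulating IGF1, Ins2 (0.25), an insulin gene, and Igfbp5 (-0.21), a binding protein. Among 8 receptors and adaptors 2 were higher and 6 lower, none called, and the smallest p belonged to Grb14 (-0.48), Sh2b2 (0.55) and Grb10 (-0.51), which bind the receptors from inside the cell. Of 10 genes of PI3 kinase and its phosphatases 8 were lower and 1, Inpp4a, was called, and the regulatory subunit Pik3r1 stood at -0.39 and Inpp5d at 0.52. Of 16 kinases and their partners below PI3 kinase 12 were lower and none was called, with Sgk1 (-0.84), Rictor (-0.62) and Eif4ebp1 (0.29), a brake on translation, at the smallest p. The 10 brakes on the pathway had 7 lower and none called, led by Socs6 (-0.87), and the phosphatases Phlpp1 (-0.42) and Phlpp2 (-0.45). Of 17 other Foxo factors and Foxo targets 15 were lower and none called. Among these were the cell cycle inhibitor Cdkn1b (-0.62), Pdk4 (-0.42), which slows glucose oxidation, and catalase (-0.55). Since 27.6% of all probe sets were higher, most of these splits lie near that of the whole array. From the diet by batch means of 23 arrays the values were more than 1.5 times smaller for Igfals (0.15), Ins2 (0.07), Igfbp5 (-0.14), Grb14 (-0.29), Sh2b2 (0.28), Eif4ebp1 (0.17), Phlpp2 (-0.22), Cdkn1b (-0.37) and Cat (-0.31), and for Rictor as given. Over the 4 diets, Igfbp6 and Igf2, a binding protein and a growth factor, Inppl1, a lipid phosphatase, Ptpn1 and Ptprf, phosphatases that act on the receptors, and the Foxo target Bcl2l11 also ranked among the smallest p of their lists, with adjusted p from 0.726 to 0.731 in limma.

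Between the batches of the other 3 diets 39 of the 70 were called, 29 higher and 10 lower in batch 2, a share near the 51.5% of all probe sets, so that the count is no result about the pathway. Each value is the log2 difference of batch 2 minus batch 1. Among ligands and binding proteins Igfbp5 (0.35) and Igfbp7 (0.21) were higher and the insulin gene Ins2 (-0.17) was lower. Among receptor partners Grb2 (0.29), Grb10 (0.33) and Sh2b1 (0.16) were higher and the adaptor Shc1 (-0.33) was lower. The largest value belonged to a PI3 kinase catalytic subunit, Pik3cd, at -2.44, while the subunits Pik3ca (0.39), Pik3cb (0.31), Pik3r1 (0.50) and Pik3r3 (0.52) were higher. Of the lipid phosphatases Inpp5k (0.17) was higher and Inpp5d (-0.40) and Inpp4a (-0.29) were lower. The kinases and mTOR genes Pdpk1 (0.62), Gsk3b (0.80), Rictor (0.47), Rptor (0.22), Tsc1 (0.23), Tsc2 (0.22) and Rheb (0.59) were higher and the translation brake Eif4ebp1 (-0.19) was lower. Of the brakes, Phlpp1 (0.40), Phlpp2 (0.22), Trib2 (0.37), Socs6 (0.36) and Ptpn11 (0.45) were higher and Socs3 (-0.31) was lower. The Foxo targets Cdkn1b (0.26), Sesn1 (0.23), Sesn3 (0.27), Ccng2 (0.46), Sod2 (0.30), Cat (0.26) and Fbxo32 (0.40) were higher, and Foxo4 (-0.15), Cdkn1a (-0.33) and Sesn2 (-0.17) were lower. These signs were not followed under quantile normalization.

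In most lists the markers of cell types also lay lower on pellets than on fast food, with no call in the fit of 24 arrays. All tested probe sets had a median of -0.17 in that fit, with 27.6% higher on pellets. From the diet by batch means of 23 arrays their median was -0.09, with 30.3% higher. Between pellets and fast food 0 of 6 neuron, 0 of 6 astrocyte and 0 of 5 oligodendrocyte markers were higher on pellets, with medians of -0.32, -0.23 and -0.34, and of -0.17, -0.14 and -0.19 from the diet by batch means of 23 arrays. The mean level of the astrocyte markers on an array ranged from 8.66 to 9.53 on fast food and from 7.98 to 9.26 on pellets, or from 8.71 to 9.26 without the array that stood apart. That of the oligodendrocyte markers ranged from 9.34 to 10.43 on fast food and from 8.81 to 10.25 on pellets, or from 9.36 to 10.25 without it. The mean level of the neuron markers on an array ranged from 9.74 to 10.74 on fast food and from 9.18 to 10.57 on pellets, or from 9.69 to 10.57 without the array that stood apart. Igf1 is strongly expressed in olfactory bulb, and the 5 tested markers of that region had a median of -0.37, with array means of 5.27 to 6.20 on fast food and 4.37 to 5.56 on pellets, or 4.82 to 5.56 without that array. For the 5 microglia markers, which express Igf1 in some states, the median was -0.27, or -0.12 from the diet by batch means of 23 arrays, with array means of 7.04 to 7.46 on fast food and 6.35 to 7.43 on pellets, or 6.93 to 7.43 without that array. The choroid plexus list (5 tested) had a median of -0.21, that of the meninges (5 tested, with Igf2) -0.18, and that of endothelium (4 tested) -0.01. From the diet by batch means of 23 arrays endothelium stood at 0.05. For the pituitary list (3 tested) all 3 markers were higher at a median of 0.02, but in those means 1 of 3 was, at a median of -0.60. The 1 tested blood gene, Alas2, stood at 0.72. None of these was called, and in the fit of 23 arrays 1 marker of all lists passed between pellets and fast food, Tshz1 of the olfactory bulb, at -0.70. For the human diets against the chimpanzee diet, where Igf1 stood at 0.23, the medians were 0.34 for pituitary (3 of 3 higher), 0.24 for meninges (5 of 5), 0.22 for olfactory bulb (3 of 5), 0.21 for oligodendrocytes (5 of 5), 0.17 for choroid plexus (5 of 5), 0.12 for astrocytes (4 of 6), 0.08 for endothelium (3 of 4), 0.01 for microglia (3 of 5) and -0.04 for neurons (2 of 6), with 0 called. Array means of the pituitary markers spread widely, from 4.09 to 11.13 on cafeteria food and from 3.99 to 7.08 on fast food. On the chimpanzee diet they ran from 4.24 to 5.70. For fast food against the chimpanzee diet, where Igf1 stood at 0.30, the olfactory bulb markers had the largest median of these lists, 0.37 with 5 of 5 higher and 0 called. The part of these markers in the values of Igf1 and Foxo3 was not tested.

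The genes whose log2 levels ran most like a member over the arrays were found by Pearson correlation, which is given as a description because all points share their arrays. Over the 24 arrays as deposited, the main probe set of Igf1 ran most like Fam210a (r = 0.87), Bicc1 (r = 0.83) and Zfp420 (r = 0.82), and without the array that stood apart the same 3 genes came first, with r between 0.78 and 0.83. After the mean of each diet in each batch was subtracted, the genes were Arhgdib (r = 0.83), Zdhhc6 (r = 0.81) and Mthfd1l (r = 0.81). For Foxo3 they were Fgd4 (r = 0.92), Pnrc2 (r = 0.92) and Ssbp2 (r = 0.92) as deposited and Ttc19 (r = 0.88), Klf12 (r = 0.87) and Shisa6 (r = 0.87) after subtraction. Without the array that stood apart the deposited values of Foxo3 ran most like other genes, Cdyl2, Lrrtm1 and Rrm2b (each r = 0.87).
The receptors followed other genes, and without the array that stood apart the highest r was 0.93 for Insr and 0.95 for Igf1r. Insr ran like Krr1 (r = 0.97), Zfp266 (r = 0.97) and Myh9 (r = 0.97), and after subtraction like Prkag2 (r = 0.97), Cbx1 (r = 0.96) and Krr1 (r = 0.96). Igf1r ran like Atp2b1 (r = 0.96), Opcml (r = 0.94) and Mcf2l (r = 0.93), and after subtraction like Med13l (r = 0.91), Foxp1 (r = 0.90) and Atp2b1 (r = 0.89). In the deposited values without that array, Sod2 took the place of Myh9 for Insr, and Stxbp5 that of Opcml for Igf1r.
Of all these genes Zdhhc6 alone came up for 2 members, Igf1 and Irs1, each time by a different probe set. For Irs1 it did not come up without the array that stood apart, where Myh14, Lamtor3 and Hexim1 came first after subtraction. The highest r without the array that stood apart was 0.94 for Irs1 and 0.80 for Irs2. Irs1 ran like Iars (r = 0.99), Zmpste24 (r = 0.98) and Tsr2 (r = 0.98), and after subtraction like Zdhhc6 (r = 0.98), Stk4 (r = 0.98) and Edem3 (r = 0.98). Irs2 ran like Ankrd54 (r = 0.90), Tff1 (r = 0.90) and Nos1ap (r = 0.88), and after subtraction like Cela3b (r = 0.94), Tbc1d12 (r = 0.93) and Trpv4 (r = 0.93). In the deposited values without that array the genes of Irs1 were all others, Luzp1, Rbbp5 and Smchd1. Those of Irs2 were then Khsrp, Snord104 and Tff1.
For Foxo1 and Akt1 the highest r without that array was 0.82 and 0.94. Foxo1 ran like Prmt3 (r = 0.90), Gtf2h5 (r = 0.89) and Jmy (r = 0.87), and after subtraction like Atrx (r = 0.86), Prmt3 (r = 0.84) and Txndc11 (r = 0.84). Akt1 ran like Psma7 (r = 0.97), Maf1 (r = 0.97) and Med10 (r = 0.96), and after subtraction like Selenos (r = 0.97), BC004004 (r = 0.97) and Psma5 (r = 0.97). In the deposited values without that array the genes of Akt1 were all others, Ube2v1, Pdxp and Caly. For Foxo1 Mylk then took the place of Jmy. No member was among these genes for another member.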

How the data were processed

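RNA of 24 right cerebral hemispheres was hybridised to Affymetrix GeneChip arrays of the mouse genome, 1 per mouse. The authors normalized the scans by RMA (affy) and deposited log2 values, which were used as deposited. The number of arrays limits the precision. RMA includes quantile normalization, which hides a shift common to most genes, yet the array medians ran from 4.02 to 4.32 and the SDs from 1.58 to 2.07, so that quantile normalization was also run again. The methods leave out 1 pellet array with degraded RNA without naming it, and all 6 were kept here. Of 45101 probe sets, 64 controls were removed, and 34945 had 1 gene in the platform annotation, 932 several and 9160 none. Of those with 1 gene, 34741 were matched to the current gene table.

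Groups and batches are those of the labels. Probe sets whose mean log2 level reached 4.07, the median of all means, were tested in limma 3.58.1 (R 4.3.3) with diet and labelled batch as terms, and p-values were adjusted by Benjamini-Hochberg over all 22519, with a call at an adjusted p under 0.05. The script was tested on simulated data with the same pellet shift in both batches and no outlying array. That test therefore does not cover the batch crossing of the pellet arrays or the array that stood apart. Batches were compared on the 18 arrays of the other diets. Alternatives were the level filter, the batch term, normalization, array weights, blocks, an 18S covariate, the methods' test with both factors, single batches and leaving out each array. The diet by batch means without the array that stood apart were chosen after seeing the data. Of the pathway lists, genes were named that passed in a diet or batch comparison, and otherwise up to 3 per list with the smallest p over the 4 diets or between pellets and fast food. Members and lists were chosen with earlier results of these data known. Python 3.11.15 and matplotlib 3.10.9 drew the figures.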

Additional observations from a re-analysis of the deposited data

Results flagged for a closer look

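Among 64 groups of 6 arrays, 7 held 1 array whose gap to the nearest other took up most of the group's range, where chance flags about 5% of groups. Of these, 5 were the pellet array of batch 2, replicate 1, with log2 levels of 4.65 for Insr (nearest array 5.74), 5.43 for Igf1 1452014_a_at (nearest 4.45), 5.14 for Irs1 (nearest 7.02), 6.97 for Akt1 1416657_at (nearest 7.74) and 5.98 for Akt1 1425711_a_at (nearest 6.69). The others were fast food arrays of batch 2, at 5.89 for Foxo1 1416981_at (nearest 6.34) and at 7.95 for Foxo3 1434832_at (nearest 7.50).

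For 11 probe sets the difference of pellets from the other diets itself differed between the batches, as tested by the interaction in limma. Batch 2 minus batch 1 of this difference was -0.997 for Insr, -1.04 for Igf1 1434413_at, -0.98 for Igf1r 1452982_at and -0.83 for 1428967_at. It was -1.39 for Irs1 and 0.95 for Irs2, the adaptor with the opposite sign. It was -0.45 for Foxo1 1416983_s_at, -0.67 for Foxo3 1434832_at and -0.69 for 1434831_a_at, and -0.73 for Akt1 1416657_at and -0.61 for 1425711_a_at. The share of all probe sets called for this interaction was 69.2%, and the cause was not tested. These sizes include the pellet array that stood apart, 1 of the 3 pellet arrays of batch 2. Without it 8 of the 16 were called, with 56.8% of all. Foxo1 1416983_s_at, Foxo3 1434831_a_at and Akt1 1425711_a_at then did not pass. The sizes without that array are not given here.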

How the results depend on the processing

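The count of 0 members called between diets was the same under all alternatives but these. Batch 2 alone gave 7 over the 4 diets and 9, 9 and 8 for pellets against fast food, the cafeteria diet and the chimpanzee diet. Array weights gave 3, 2, 2 and 1 in the same order, and 1 for fast food against the chimpanzee diet. Between pellets and fast food, diet by batch means gave 5 and, without the array that stood apart (chosen after seeing the data), 2, and exchanged pellet batches gave 5, and 3 without that array. In the methods' test with both factors the count of 0 says less. That test first removes probe sets with a diet by batch interaction at an unadjusted p under 0.05, and a removed member cannot be called. How many members it removed is not given here. Leaving out each array in turn gave 0 for every diet comparison, 4 to 9 for the batch difference (46.9% to 57.3% of all probe sets; 4 without HumanCafe batch 1 replicate 1) and 8 to 14 for the interaction (56.8% to 75.3%). Quantile normalization again gave 3 for the batch difference (43.8% of all) and 6 for the interaction (52.8%), and 1 probe set per gene gave 7 of 8 for the latter (69.3%).

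For pellet minus fast food, signs turned for Igf1r (0.22 in batch 1 alone, 0.10 with array weights), Irs1 (0.15 and 0.12), Akt1 (0.14 and 0.18, 0.085 after quantile normalization and 0.015 without the array that stood apart, in a range of -0.23 to 0.015 over left-out arrays) and Foxo1 (0.063 in batch 1 alone and 0.049 after quantile normalization). Irs2 turned to -0.49 in batch 1 alone, -0.42 with array weights, -0.0028 after centring each array, -0.018 with 18S as a covariate, -0.16 without the array that stood apart, and without it -0.12 with exchanged batches and -0.12 from diet by batch means, in a range of -0.16 to 0.18 over left-out arrays. For the batch difference, Foxo3 turned to -0.032 after quantile normalization. The causes were not tested.

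Same-numbered arrays of a batch had mean correlations of their deviations between -0.103 and 0.165 (lowest single value -0.484). These values do not show that the numbers pair mice, and they cannot exclude it. The methods say that littermates were spread evenly over the diets, and the labels name no litter. With a replicate block 0 members were called between diets and 6 between batches (50.6% of all). The spread over 6 arrays a diet limits what can be called.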
